A study of Mus musculus with 12 samples.

Results

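Alternative activation markers are genes whose transcripts are used to recognise macrophages in the state induced by interleukin-4 (IL-4) and interleukin-13 (IL-13), or in the related state of many resident tissue macrophages. The 10 described here were taken by symbol from a table of 22711 genes, and they were chosen with earlier results of these data known. They are the surface receptors Mrc1, Cd163, Stab1 and Lyve1, the lectins Mgl2 and Clec10a, the enzyme Arg1, the secreted protein Retnla, the cytokine Il10 and the receptor chain Il4ra. All 10 had a single entry and were read in each of the 12 libraries. In mm9 the receptors lie at chr2:14151041-14253684 (Mrc1), chr6:124254669-124280545 (Cd163), chr14:31952199-31981827 (Stab1) and chr7:117994121-118006467 (Lyve1), and Arg1 at chr10:24635014-24647276. Retnla is at chr16:48842665-48844574, Il10 at chr1:132916422-132921551 and Il4ra at chr7:132695785-132722986.

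IL-4 and IL-13 bind receptors that share the chain encoded by Il4ra, which acts through the kinases JAK1, JAK3 and TYK2 to phosphorylate the transcription factor STAT6. In mouse macrophages STAT6 induces Arg1, Retnla, Mgl2 and Mrc1, whereas Cd163 is better known as a gene induced by IL-10 and glucocorticoids. Several of these genes are not macrophage genes alone, since sinusoidal endothelium carries Stab1 and both lymphatic and sinusoidal endothelium carry Lyve1.

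The mice carried RIP-rtTA and TetO-VEGF-A in every group, controls included: the rat insulin promoter places the doxycycline-dependent activator rtTA in beta cells, and doxycycline (Dox) then switches on VEGF-A, an endothelial growth factor. The 4 groups of 3 libraries were macrophages sorted with an antibody to CD11b after 1 week of Dox (Dox macrophages), endothelial cells sorted with an antibody to CD31 after 1 week of Dox (Dox endothelial cells), whole islets after 1 week of Dox (Dox islets) and whole islets of mice given no Dox (No Dox islets). Sorted cells of untreated mice were not analysed here, so a change within macrophages between Dox and no Dox cannot be read directly. Nothing in the labels states that the 3 libraries of a group are separate mice, and p-values therefore measure the spread between these samples, which may be technical. No ages are stated.

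Values are the authors' normalized signal on a linear scale with a floor of 1, where a gene at 1 is listed at the floor. All 15 core macrophage genes were called higher in Dox macrophages than in Dox endothelial cells, where 29.4% of the 10145 genes tested were. Most of the 15 were low in Dox endothelial cells and entered the test through the macrophage libraries. The summed signal of an index of 8 of them was 162349.6 to 181799 in Dox macrophages, against 70.7 to 265 in Dox endothelial cells. Endothelial genes summed to 1825 to 2397 in Dox macrophages and 249308 to 278721 in Dox endothelial cells. Pancreatic acinar genes set apart replicate 2 of both sorted groups, with a sum of 398774 in that macrophage library against 29321 and 6839.9 in the other two, and 117142 in that endothelial library against 5336 and 281 in the other two. The sums include Rbpjl, which was called higher in Dox macrophages than in Dox islets (mean 3942 against 59.0), so the lower macrophage sums are not acinar enzyme signal alone. Among the islet libraries, Dox replicate 1 and No Dox replicate 2 deviated from their groups with GC content in the other direction from the remaining 4 (Spearman 0.56 and 0.64, against -0.44 to -0.33). Results are given without these libraries where that changes a call.

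In whole islets, transcripts of Mrc1, Cd163 and Stab1 were higher after 1 week of Dox, each by more than 4-fold in mean signal, while Lyve1, Il4ra and Arg1 did not pass the test and Arg1 had the lower mean after Dox. Mrc1 encodes the mannose receptor CD206, an endocytic lectin that clears mannosylated glycoproteins. Its signal was 1515, 1899.7 and 1672 in the 3 Dox islet libraries, against 463, 249 and 372 in the No Dox islet libraries. Every Dox library lay well above every No Dox library. The log2 difference was 2.27 (SE 0.33, adjusted p = 0.0112, limma over all genes tested), a mean of 1696 ± 193 in Dox islets against 361 ± 107 in No Dox islets (SD, n = 3 each).

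Cd163 encodes the scavenger receptor that takes up haemoglobin bound to haptoglobin. Its signal was 320.1, 533 and 821 in Dox islets, against 147, 86.1 and 148 in No Dox islets. The groups did not overlap, but the Dox libraries differed among themselves more than those of Mrc1. The log2 difference was 2.07 (SE 0.47, adjusted p = 0.0311), with means of 558 ± 252 in Dox islets and 127 ± 35.3 in No Dox islets. Cd163 entered the test through the Dox libraries alone, since all 3 No Dox values were under the filter on low values, a signal of 183 in at least 3 of the 6 libraries, and with no filter its adjusted p was 0.138.

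Stab1 encodes stabilin-1, a scavenger receptor for altered lipoproteins and other ligands. Its signal was 4147, 1443 and 1460.1 in Dox islets, against 367, 846 and 245 in No Dox islets. Dox replicate 1 was high above the other two, and all 3 exceeded the No Dox libraries. The log2 difference was 2.28 (SE 0.55, adjusted p = 0.0365), and without that library it was 1.77 with an adjusted p of 0.0590.

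Lyve1 encodes a hyaluronan receptor that marks lymphatic vessels and a subset of perivascular macrophages. Its signal was 369.5, 639 and 806 in Dox islets, against 586, 304 and 500.0 in No Dox islets. The ranges overlapped widely, and the log2 difference of 0.36 (SE 0.41, adjusted p = 0.689) did not pass the test.

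Arg1 encodes arginase-1, which converts arginine to ornithine and urea. Its signal was 219, 111 and 252 in Dox islets, against 575, 431 and 467 in No Dox islets. Here the Dox libraries were all below the No Dox libraries, the reverse of the scavenger receptors. The log2 difference of -1.41 (SE 0.42) had an adjusted p of 0.0724, just outside the threshold of 0.05. It passed with all 4 groups fitted together (adjusted p = 0.0235), with a term for the 2 libraries set apart by GC content (0.0356), with each library's GC trend removed (0.0329) and after quantile normalization (0.0471), and it lay between 0.0235 and 0.272 over all alternatives.

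Il4ra, the receptor chain named above, had a signal of 1384, 1954 and 1371 in Dox islets, against 934, 896 and 1236 in No Dox islets. The groups did not overlap, yet the gap between the nearest libraries was small. The log2 difference of 0.61 (SE 0.30) had an adjusted p of 0.253.

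Retnla, Mgl2, Clec10a and Il10 were too low in whole islets to enter the test, which has the filter given above. Retnla, which encodes the secreted protein RELM-alpha, was at 4.84, 1 and 1 in Dox islets and 1.88, 1 and 1 in No Dox islets. Mgl2, the galactose-type lectin CD301b, was at 81.5, 12.3 and 13.9 in Dox islets, against 10.2, 38.8 and 1 in No Dox islets. These 2 genes overlapped between the groups.

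Clec10a, the related lectin CD301a, was at 58.5, 36.4 and 15.6 in Dox islets, against 11, 1 and 12 in No Dox islets, so that its 3 Dox libraries were above its 3 No Dox libraries at a low level. Il10, an anti-inflammatory cytokine, was at 82.1, 63.6 and 24.5 in Dox islets and 33.1, 51.1 and 1.5 in No Dox islets, with overlap. With no filter on low values none of these 4 genes passed, with adjusted p-values of 0.427 for Clec10a, 0.800 for Il10, 0.844 for Mgl2 and 0.992 for Retnla.

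**Figure D1:**
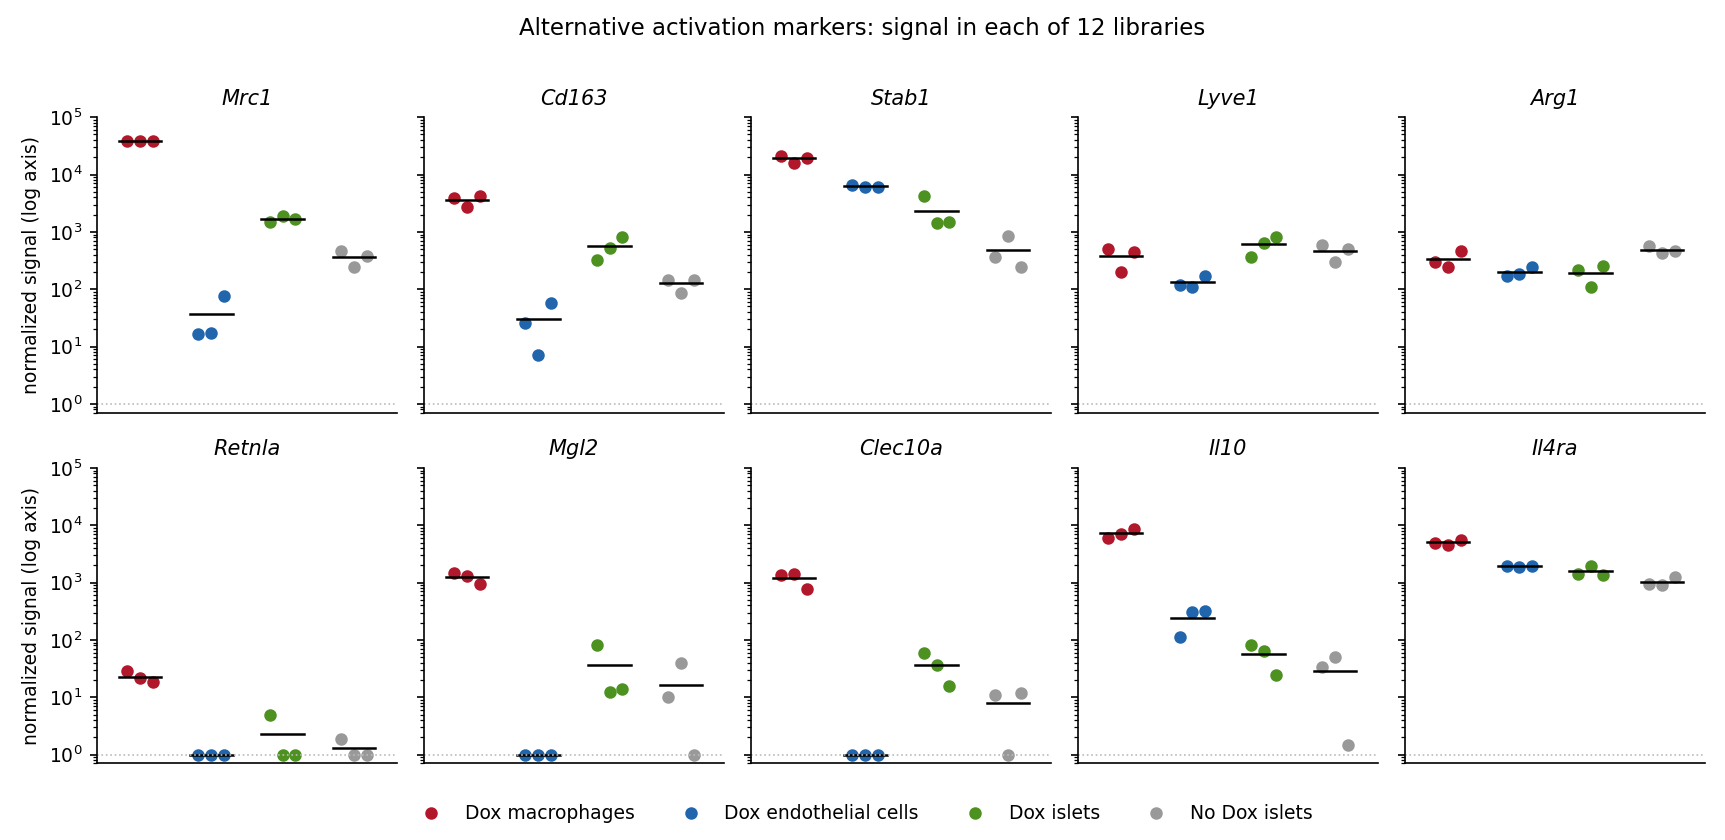
Normalized signal of the 10 alternative activation markers in each of the 12 libraries, on a log axis; points are libraries, black bars are group means of 3 libraries, and the dotted line is the floor of 1. Mrc1 stood between 38084 and 38535 in Dox macrophages and between 16.4 and 77.4 in Dox endothelial cells, while Lyve1 and Arg1 lay within 1 order of magnitude in all 4 groups.

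Of the 6 tested markers, 3 were higher and 0 lower in Dox islets, where 6.22% of the 10214 genes tested were called higher and 2.26% lower. At an unadjusted p under 0.05, 4 of the 6 passed, the fourth being Arg1, where 2435 of the 10214 genes tested did. The median log2 difference of the 6 was 1.34, against 0.11 over all genes tested, and both describe only the markers that passed the filter. Of the 6, 4 had all Dox libraries above all No Dox libraries and 1 had them below, an arrangement shown by 17.3% of all tested genes in the higher direction and 10.6% in the lower. In bulk islets, more cells of a type and more RNA per cell cannot be told apart.

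The call for Mrc1 was lost without Dox replicate 2 (adjusted p = 0.0752) and that for Cd163 without Dox replicate 2 or 3 (0.133 each) or No Dox replicate 1 (0.0591) or 2 (0.0535). For Stab1 it was lost without any single library other than No Dox replicate 2, with adjusted p-values from 0.0590 to 0.114. Between Dox replicate 1 and No Dox replicate 2, the pair set apart by GC content, the log2 differences were 2.60 for Mrc1, 1.88 for Cd163 and 2.29 for Stab1, and among the other 4 libraries they were 2.10, 2.16 and 2.27. For Arg1 these values were -0.97 and -1.63.

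Promoter sequences are shown for the 3 markers that were higher together in Dox islets, as the 250 bases before each start site (RefSeq, GRCm38.p6, transcribed strand, 5′ to 3′). The capitals mark the core GAGGAA, or TTCCTC where it lies on the opposite strand, which is bound by the macrophage transcription factor PU.1. The windows are chr2:14229164-14229413 on the plus strand for Mrc1, chr6:124304401-124304650 on the plus strand for Cd163 and chr14:31168642-31168891 on the minus strand for Stab1.
Mrc1: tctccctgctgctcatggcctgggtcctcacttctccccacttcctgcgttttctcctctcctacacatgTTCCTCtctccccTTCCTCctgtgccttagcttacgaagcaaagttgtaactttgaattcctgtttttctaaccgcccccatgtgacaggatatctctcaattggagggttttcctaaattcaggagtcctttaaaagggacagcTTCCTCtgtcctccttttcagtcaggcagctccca
Cd163: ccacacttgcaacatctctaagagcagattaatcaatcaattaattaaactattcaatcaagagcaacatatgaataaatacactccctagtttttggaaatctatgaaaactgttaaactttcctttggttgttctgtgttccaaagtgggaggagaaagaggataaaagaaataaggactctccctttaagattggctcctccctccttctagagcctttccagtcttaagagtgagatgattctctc
Stab1: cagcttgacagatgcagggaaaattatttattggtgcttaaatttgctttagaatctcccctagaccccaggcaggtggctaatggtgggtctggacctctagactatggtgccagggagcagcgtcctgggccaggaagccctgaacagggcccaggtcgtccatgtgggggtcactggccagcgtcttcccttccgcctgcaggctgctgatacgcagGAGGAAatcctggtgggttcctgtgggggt
RefSeq promoters were matched for 6 of the 10 markers: Mrc1, Cd163, Stab1, Retnla, Mgl2 and Il4ra. Mrc1 held 3 matches to this core, with first bases at -180, -167 and -35 from the start, Stab1 held 1 at -30, and Cd163 held 0. Of the markers not called in islets, Retnla held 1 at -196, Mgl2 held 1 at -225 and Il4ra held 0. Among all 32851 promoter windows of this length 23.3% held at least 1 match on either strand. The STAT6 pattern TTCNNNNGAA, found in 5.85% of promoters, was absent from these 3 windows and present in that of Retnla as TTCACAAGAA at -145 to -136. The spacings TTCNNNGAA (7.02% of promoters) and the E-box CACGTG (6.02%) were searched on both strands and found in none of the 6, and no matches overlapped. A match is a description of letters and not a site.

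Markers of several cell types moved in the same comparison. Of 15 core macrophage genes, 10 were tested and 7 were higher in Dox islets, with a median log2 difference of 1.54. They included Emr1, which encodes F4/80 (log2 difference 2.12, mean 1179 in Dox islets against 281 in No Dox islets), the lysozyme gene Lyz2 (1.83), the fractalkine receptor gene Cx3cr1 (1.74) and the pore-forming protein gene Mpeg1 (1.73). Csf1r, the receptor of the macrophage growth factor CSF1, had the highest mean among those that did not pass (1.34, adjusted p = 0.0830). Of 15 endothelial genes, 10 were tested and 7 were higher, led by Plvap (1.88), Cdh5 (1.85), Pecam1 (1.69) and Flt4 (1.5).

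Beta cell genes went the other way, with 6 of 10 lower and none higher, among them G6pc2 (-2.40), Slc2a2 (-2.39) and Slc30a8 (-1.98). Their summed signal was 165514 to 227413 in Dox islets, against 394856 to 691247 in No Dox islets. Acinar genes summed to 94373 to 286562 in Dox islets and 32914 to 103999 in No Dox islets, and 0 of 8 tested passed, with 5 at an unadjusted p under 0.05. Of all 10214 genes tested, 2435 were under that unadjusted p. The part of these cell types in the marker results was not tested.

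The markers were also set against macrophage genes in the same library. The mean log2 signal of the 8 index genes was 8.69 to 9.44 in Dox islets and 6.97 to 7.89 in No Dox islets, a difference of 1.53 without overlap. Relative to this index the log2 difference, Dox minus No Dox islets, was 0.74 for Mrc1 (exact two-sided permutation p = 0.3, n = 3 each), 0.75 for Stab1 (exact p = 0.3) and 0.54 for Cd163 (exact p = 0.5). All 3 ratios overlapped between the groups over all 6 libraries. With 3 libraries against 3 this test cannot give a p below 0.1.

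For Il4ra the difference relative to the index was -0.92 (exact p = 0.2) and for Lyve1 -1.17 (exact p = 0.3), both with overlap. Arg1 relative to the index was between -1.95 and -0.71 in Dox islets, against 0.87 to 1.90 in No Dox islets. Arg1 was the 1 tested marker whose ratio did not overlap over all 6 libraries, with a difference of -2.94 (exact p = 0.1, the smallest possible). The ratio falls for any gene that rose less than the index, and the Arg1 signal itself was already separate between the groups. How many of all genes have a separate ratio was not computed. The sign of each of the 6 ratios was kept under all alternatives, with Arg1 between -3.31 and -2.68 and Cd163 between 0.05 and 1.25. Ratios were not formed for the 4 markers below the filter.

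Within the library sets that GC content set apart, all 6 ratios kept their direction. In the set of 1 library against 1, any 2 unequal values are separate, and the share of all genes that behave this way was not computed. For Dox replicate 1 against No Dox replicate 2, the ratio was 1.12 against 0.08 for Mrc1, 2.57 against 1.84 for Stab1, -1.12 against -1.44 for Cd163, 0.99 against 1.92 for Il4ra and -0.91 against 0.37 for Lyve1. Among the other 4 libraries, those of Dox islets were above those of No Dox islets for Mrc1 (2.02 to 2.14 against 1.42 to 1.58), Stab1 (1.75 to 1.82 against 0.97 to 1.09) and Cd163 (0.31 to 0.99 against -0.23 to 0.25). They were below for Il4ra (1.73 to 2.18 against 2.43 to 3.31), Lyve1 (0.57 to 0.97 against 1.76 to 2.0) and Arg1, and the mean differences were -0.91, -1.11 and -3.14. These sets were defined from the same libraries and hold 1 or 2 libraries per group, so the values are given without a test.

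**Figure D2:**
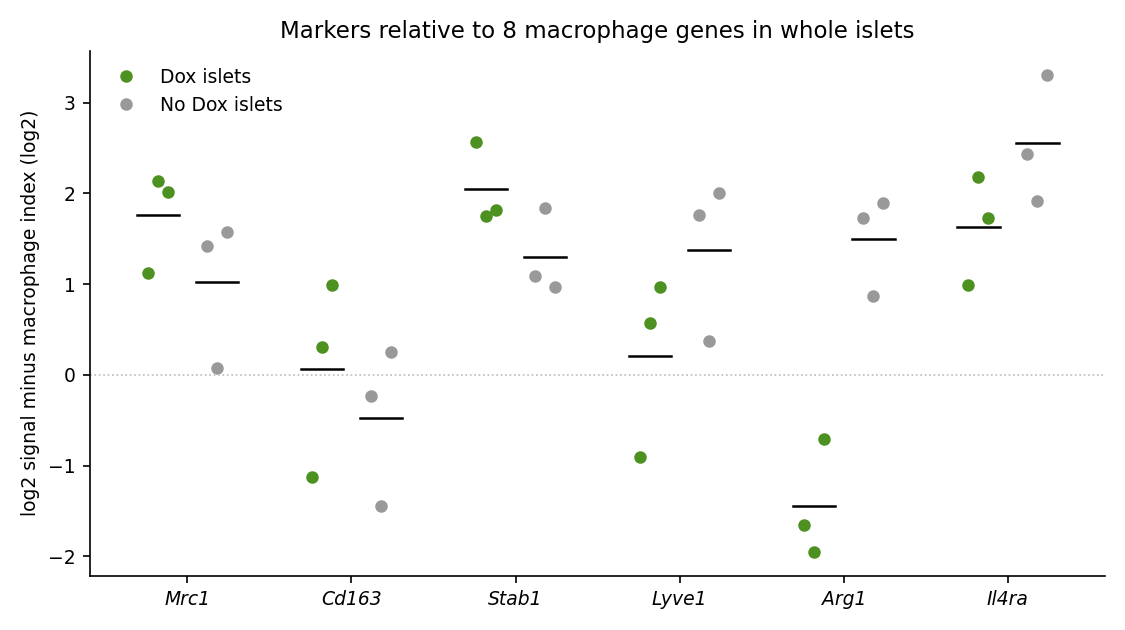
Log2 signal of the 6 tested markers minus the mean log2 signal of 8 macrophage genes in the same library; points are libraries, bars are means of 3, with Dox islets left of No Dox islets. Arg1 was between -1.95 and -0.71 in Dox islets and between 0.87 and 1.90 in No Dox islets, while the other 5 markers overlapped over all 6 libraries.

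Sorted cells show how the transcripts compared between macrophages and endothelial cells after 1 week of Dox. No other islet cells were among the sorted groups. Of 9 markers tested, 8 were higher in Dox macrophages than in Dox endothelial cells and 0 were lower, where 29.4% of the 10145 genes tested were called higher and 36% lower. Of the 9, Mrc1, Cd163, Lyve1, Mgl2 and Clec10a passed the filter through the macrophage libraries alone, so the count is partly set by the filter. With no filter these passed too, other than Lyve1, and so did Retnla. Mrc1 was at 38535, 38084 and 38521 in Dox macrophages, against 16.4, 17.3 and 77.4 in Dox endothelial cells. The macrophage libraries were nearly equal and far above all endothelial libraries, and the log2 difference was 10.36 (SE 0.52, adjusted p = 7.85e-07).

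Cd163 was at 3948, 2739 and 4228 in Dox macrophages and 25.8, 7.10 and 58.3 in Dox endothelial cells, a log2 difference of 7.25 (SE 0.64, adjusted p = 2.13e-05). Il10 was at 6015, 6907 and 8721 in Dox macrophages, against 114, 302 and 315 in Dox endothelial cells (log2 difference 5.0, SE 0.37, adjusted p = 7.48e-06). Both genes were thus high in every macrophage library and, unlike the 2 lectins, above the floor in every endothelial library. Mgl2 was at 1441, 1282 and 962 and Clec10a at 1339, 1428 and 769 in Dox macrophages, and both were listed at the floor of 1 in all 3 Dox endothelial libraries. Both were called higher, and no fold is given against a group at the floor.

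Stab1 and Il4ra were higher in macrophages but also well above the floor in endothelium. Stab1 was at 21381, 16136 and 19810.1 in Dox macrophages, against 6618, 6080.5 and 6036 in Dox endothelial cells (log2 difference 1.60, SE 0.12, adjusted p = 7.13e-06). Il4ra was at 4888, 4595 and 5547 in Dox macrophages and 1949, 1859.5 and 1917 in Dox endothelial cells (1.39, SE 0.10, adjusted p = 6.55e-06). For both genes the groups were separate and the endothelial libraries were tightly spaced.

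Lyve1 was low in both sorted groups, at 498, 201 and 439.5 in Dox macrophages and 117, 109.7 and 169 in Dox endothelial cells. All macrophage libraries were above all endothelial libraries, with a log2 difference of 1.44 (SE 0.39, adjusted p = 0.0112), and with no filter on low values the adjusted p was 0.0598. Arg1 was at 296, 242 and 468 in Dox macrophages and 173, 186 and 246 in Dox endothelial cells. The ranges overlapped slightly, and the log2 difference of 0.69 (SE 0.30) had an adjusted p of 0.0760. With the replicate numbers as a block, taken as pairs in this comparison from the correlation of the libraries' deviations, Arg1 passed (adjusted p = 0.0327), and it also passed without macrophage replicate 2, the library with the high acinar signal (log2 difference 0.90, adjusted p = 0.0420). The other 8 calls were kept without that library.

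Retnla was at 28.1, 21.9 and 18.1 in Dox macrophages and at the floor in all Dox endothelial libraries. It lay under the filter and was not tested there. With a lower filter, a signal of 15.6 in at least 3 of 6 libraries, it passed (adjusted p = 0.000161).

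Per kilobase of exon, which allows genes to be set beside each other, the markers spanned a wide range of levels in Dox macrophages. Mrc1 led at 6454 ± 43.1 signal per kilobase (SD, n = 3), followed by Il10 at 5507 ± 1053 and Stab1 at 1857 ± 262. Stab1 stood apart from both, while Mrc1 and Il10 differed by less than the SD of Il10. Il4ra (978), Cd163 (810.0), Clec10a (636) and Mgl2 (569) formed a middle group, and Arg1 (227), Lyve1 (146) and Retnla (38.0) were lowest.

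Reads of Mgl2 and Clec10a may be shared between them. The 2 genes lie next to each other on chromosome 11 (mm9, 69943831 to 69951052 and 69980125 to 69984336, plus strand), and their coding sequences were identical at 842 of 918 aligned bases (91.7%). Of all 50-base windows of the transcript, 16.5% in Mgl2 and 16.7% in Clec10a also occurred in transcripts of other genes, for Clec10a only those of Mgl2, so the split between these genes is uncertain. Stab1 shares 109 exon bases with Nt5dc2 on the opposite strand, and whether strand was used is not stated. The other 7 markers shared at most 1 such window.

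Against whole Dox islets, 7 of 9 tested markers were higher in Dox macrophages and 0 were lower, where 24.7% of the 10687 genes tested were called higher and 31.3% lower. Il10, Mgl2 and Clec10a passed the filter through the macrophage libraries alone, and with no filter all 7 passed as well. This comparison and the ones of Dox islets with No Dox islets and with endothelial cells share the Dox islet libraries. Il10 differed most, by 7.11 on the log2 scale (SE 0.43, adjusted p = 2.76e-06), followed by Mgl2 (5.58), Clec10a (5.10) and Mrc1 (4.51). Stab1 (3.20), Cd163 (2.78) and Il4ra (1.69) followed, each with an adjusted p under 0.001.

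Lyve1 and Arg1 did not pass in this comparison. Lyve1 averaged 379.5 ± 157 in Dox macrophages and 605 ± 220.0 in Dox islets (log2 difference -0.70, adjusted p = 0.199). Arg1 averaged 335 ± 118 in Dox macrophages and 194 ± 74.1 in Dox islets (0.81, adjusted p = 0.144), and it passed after quantile normalization alone (1.28, adjusted p = 0.0297).

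The mean signal in Dox islets as a share of that in Dox macrophages differed widely between markers. For the 8 index genes it was 2.75 to 7.45% (median 4.0%), and in No Dox islets 0.909 to 2.73% (median 1.6%). Mrc1 lay inside these ranges, at 4.42% in Dox islets, and just inside them at 0.942% in No Dox islets. Mgl2 (2.92%) and Clec10a (3.13%) were also inside the Dox range, and Il10 was below it at 0.786%.

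Cd163 and Stab1 were above the index range, with 15.3% and 12.3% in Dox islets, and their shares in No Dox islets were 3.49% and 2.54%. In Dox endothelial cells the share was 0.835% for Cd163 and 32.7% for Stab1, against 0.0155 to 0.161% for the index genes. Il4ra stood at 31.3% in Dox islets, 20.4% in No Dox islets and 38.1% in Dox endothelial cells. Arg1 (57.9% in Dox islets, 146% in No Dox islets) and Lyve1 (159% in Dox islets, 122% in No Dox islets) were the markers with most signal in islets for what macrophages held.

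**Figure D3:**
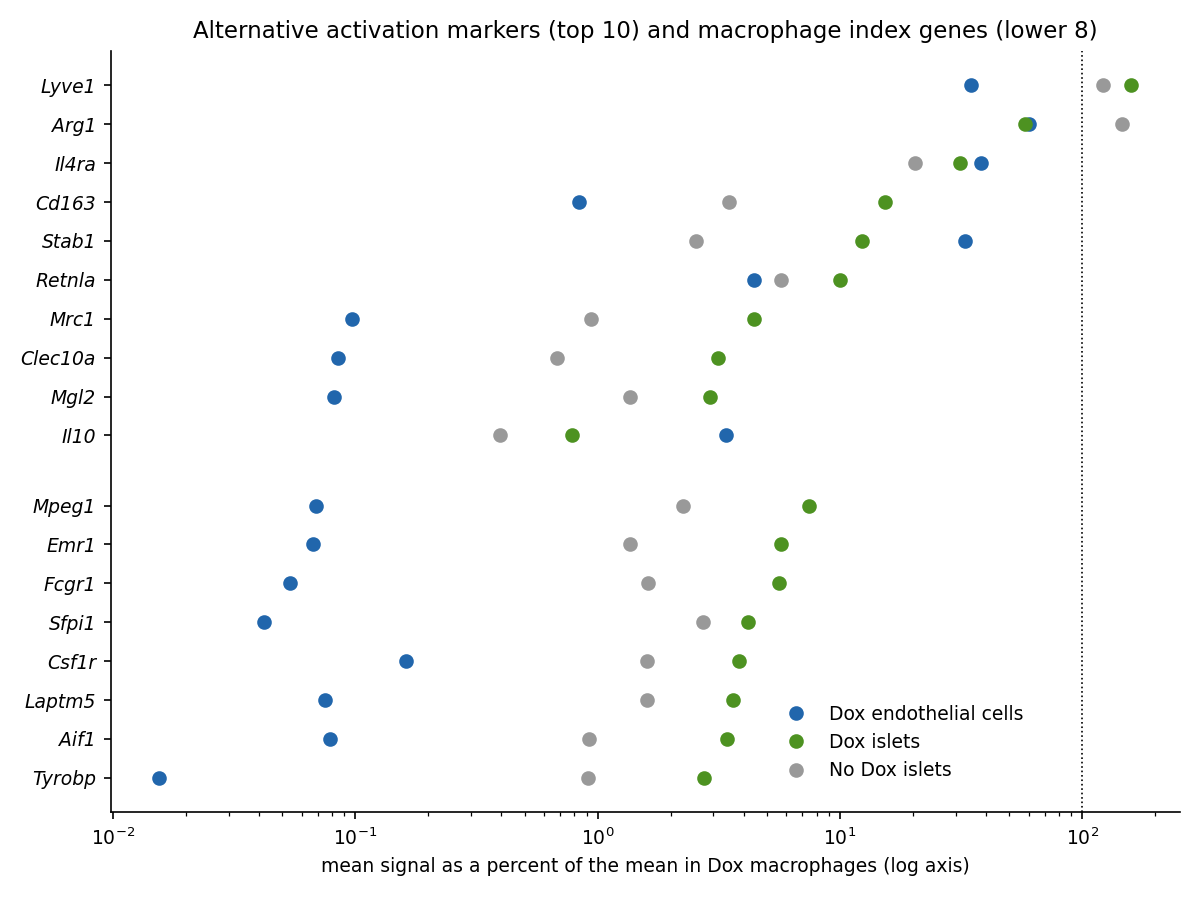
Mean signal in Dox endothelial cells, Dox islets and No Dox islets as a percent of the mean in Dox macrophages (dotted line at 100), on a log axis, for the 10 markers and below them the 8 macrophage index genes. The index genes lay at 2.75 to 7.45% in Dox islets, a range that holds Mrc1, Mgl2 and Clec10a, while Arg1 and Lyve1 exceeded 100% in No Dox islets.

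In Dox endothelial cells against Dox islets, 6 markers were tested, of which 1 was higher and 3 were lower, where 14% of the 10187 genes tested were called higher and 17.5% lower. Stab1 was higher in the sorted endothelial cells (6245 ± 324 against 2350 ± 1556 in Dox islets, log2 difference 1.60, SE 0.39, adjusted p = 0.0152). That call was lost without Dox islet replicate 2 (adjusted p = 0.0550) or 3 (0.0678), without endothelial replicate 1 (0.0542) and with no filter (0.0886). Mrc1 (-5.85), Cd163 (-4.47) and Lyve1 (-2.14, adjusted p = 0.00229) were lower in Dox endothelial cells. These 3 passed the filter through the islet libraries alone, and with no filter their adjusted p-values were 0.00681, 0.0282 and 0.0193. Lyve1 averaged 132 ± 32.5 in the CD31-sorted cells and 605 ± 220.0 in Dox islets. Il4ra (0.30, adjusted p = 0.255) and Arg1 (0.12, adjusted p = 0.818) did not pass.

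Other genes of lymphatic or sinusoidal endothelium differed in direction. Prox1, a transcription factor of lymphatic endothelium that beta cells also express, was lower in Dox endothelial cells than in Dox islets (797 against 2932, log2 difference -1.84). It did not pass in islets (-0.94, adjusted p = 0.105). Flt4, the receptor VEGFR-3, was higher in Dox endothelial cells than in Dox islets (7533 against 3130, log2 difference 1.27). The others were under the filter and not tested. Dox endothelial cells were below Dox islets, without overlap, for Pdpn (means 3.24 against 67.4) and Reln (44.0 against 126), and overlapped with them for Mmrn1 (189.9 against 118), Stab2 (11.6 against 16.1) and Ccl21a (10.2 against the floor). In islets, Mmrn1 was separate between the groups (118 in Dox islets against 25.6 in No Dox islets), while Pdpn (67.4 against 23.6), Reln (126 against 96.7) and Stab2 (16.1 against 85.7) overlapped.

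Of 21 further genes of alternative activation, 8 could be tested in islets and 2 were higher in Dox islets: Msr1, the class A scavenger receptor (645 in Dox islets against 76.8 in No Dox islets, log2 difference 3.10, adjusted p = 0.0112), and Cd36, a fatty acid and lipoprotein receptor (4099.7 in Dox islets against 1039.5 in No Dox islets, 2.04, adjusted p = 0.0113). Klf4, a transcription factor induced through STAT6 in macrophages, had the highest mean among those that did not pass (0.79, adjusted p = 0.137). The median of the 8 was 0.89. Msr1 entered the test through the Dox libraries alone, since its No Dox values were under the filter, so its call is partly set by the filter. The chitinase-like gene Chi3l3, a standard mouse marker, averaged 19.4 in Dox islets and 8.58 in No Dox islets and was under the filter.

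In the sorted cells 14 of these 21 genes were tested, and 12 were higher and 1 lower in Dox macrophages than in Dox endothelial cells. Of all genes tested, 29.4% were called higher and 36% lower. Cd209a, a lectin of the DC-SIGN family (6275 against 3.96), and the chemokines Ccl17 (3716 against 2.69) and Ccl22 (4540 against 4.45) were among those that differed most. Trem2, a lipid-sensing receptor, averaged 1818 in Dox macrophages and was at the floor in every Dox endothelial library. Cd209a, Ccl17, Ccl22 and Trem2 entered the test through the macrophage libraries alone, so the count is partly set by the filter. Klf4 was the 1 that was lower (4241 against 6319, log2 difference -0.57, adjusted p = 0.00113), and Pparg, a fatty acid-activated nuclear receptor, did not pass (0.36, adjusted p = 0.132). Against Dox islets 13 of 14 were higher in Dox macrophages, where 24.7% of all genes tested were, again with Pparg as the exception (0.07, adjusted p = 0.828). Here Ccl17, Ccl22, Irf4, Pdcd1lg2 and Trem2 passed the filter through the macrophage libraries alone, so this count is also partly set by the filter.

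The ligands of the pathway were scarcely detected in islets. Il4 averaged 2.40 in Dox islets and 2.38 in No Dox islets, and Il13 averaged 2.25 in Dox islets and 1.00 in No Dox islets. Of 13 genes of IL-4 and IL-13 signalling, 7 were tested and 1 was higher in Dox islets: Il2rg, the common gamma chain that pairs with Il4ra (516 in Dox islets against 129.7 in No Dox islets, log2 difference 2.13, adjusted p = 0.0447). Jak1 had the highest mean of the others (0.57, adjusted p = 0.280). An unadjusted p under 0.05 was found for 4 of the 7 and for 2435 of all 10214 genes tested. In sorted cells Il2rg stood at 1565 in Dox macrophages and 1645 in Dox endothelial cells and did not pass (-0.07, adjusted p = 0.641).

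Between the sorted fractions 5 of 9 of these signalling genes were higher in Dox macrophages and 1 was lower, against 29.4% and 36% of all genes tested. The phosphatase gene Ptpn6 (6.94), the adaptor gene Irs2 (5.47), Tyk2 (1.91) and Il13ra1, the partner chain for IL-13 (1.16), differed most among those that were higher. Ptpn6 (mean 18.1 in Dox endothelial cells) passed the filter through the macrophage libraries alone, so the count is partly set by the filter. Jak3 was lower (353 against 1629, log2 difference -2.23, adjusted p = 3.09e-05). Stat6 was higher by 0.55 (3368 against 2301, adjusted p = 0.00114).

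On the side of IL-10, 0 of 8 tested genes of 10 passed in islets, with 2 at an unadjusted p under 0.05. That level was met by 2435 of all 10214 genes tested, a similar share. The median of the 8 was 0.51, and Jak1 again had the highest mean. Between the sorted fractions 7 of 10 were higher in Dox macrophages, where 29.4% of all genes tested were. They were led by the receptor chain gene Il10ra (8256 against 10.1, log2 difference 10.06), the transcription factor gene Maf (4.04), Tyk2 (1.91) and the second receptor chain gene Il10rb (1.65). Il10 and its receptor chain Il10ra were thus both at a high level in the macrophage libraries. Il10ra passed the filter through those libraries alone, so the count is partly set by the filter.

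Of 13 genes of perivascular resident macrophages, a population of which a subset carries Lyve1, 3 were tested in islets and Igf1, a growth factor, was higher in Dox islets (10475 in Dox islets against 2096 in No Dox islets, log2 difference 2.46, adjusted p = 0.0269). Wwp1 had the highest mean of the other 2 (0.74, adjusted p = 0.259). Among the genes not tested, Cbr2 (49.2 in Dox islets against 2.75 in No Dox islets) and Pf4 (102 against 6.65) were higher without overlap. So were F13a1 (230 against 108), Ccl8 (14.6 against the floor) and Cd209f (4.54 against the floor), and the rest overlapped. Among the genes tested in islets 17.3% were higher without overlap, and the share among genes under the filter was not computed. In Dox macrophages against Dox endothelial cells 5 of 7 were higher, where 29.4% of all genes tested were. They included the platelet factor gene Pf4, the transglutaminase gene F13a1 (5614 against 17.0) and Cbr2, which passed the filter through the macrophage libraries alone. Igf1 itself was close between the fractions (8984 against 9167) and did not pass (-0.02, adjusted p = 0.909).

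Arginine metabolism, the setting of Arg1, gave 0 calls among 8 tested genes of 10 in islets, with 3 at an unadjusted p under 0.05. Of all 10214 genes tested, 2435 were at that level. Nos2, the inducible nitric oxide synthase that competes for arginine and marks the opposite activation state, averaged 514 in Dox islets and 119 in No Dox islets (log2 difference 2.06, adjusted p = 0.0551). Slc7a2, an arginine transporter, had the highest mean (10453 in Dox islets against 18020.4 in No Dox islets, -0.79, adjusted p = 0.1995). In Dox macrophages Nos2 was lower than in Dox endothelial cells (37.0 against 1329, log2 difference -5.25, adjusted p = 6.66e-06) and lower than in Dox islets (-3.73, adjusted p = 0.000565).

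Genes of proinflammatory activation were abundant beside the alternative ones in the sorted macrophages. Of 12 tested, 11 were higher in Dox macrophages than in Dox endothelial cells, where 29.4% of all genes tested were called higher. Among them were the cytokine genes Il1b (28471 against 6.52) and Tnf (9305 against 2.72), the costimulatory receptor gene Cd86 (66369 against 42.4) and the prostaglandin synthase gene Ptgs2 (9857 against 9.69). These named genes passed the filter through the macrophage libraries alone, so the count is partly set by the filter. Nos2 was the 1 of the 12 that was lower. Against Dox islets 11 of 12 were likewise higher, where 24.7% of all genes tested were. Among these, Tnf, Il12b, Ccl5 and Il1a (means of 30.3, 33.5, 36.3 and 51.7 in Dox islets) passed the filter through the macrophage libraries alone. That count too is partly set by the filter. In whole islets 0 of 5 tested passed, with 2 at an unadjusted p under 0.05, where 2435 of all 10214 genes tested were. Il1b had the highest mean of the 5 (836 in Dox islets against 629 in No Dox islets, 0.56, adjusted p = 0.633).

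**Figure D4:**
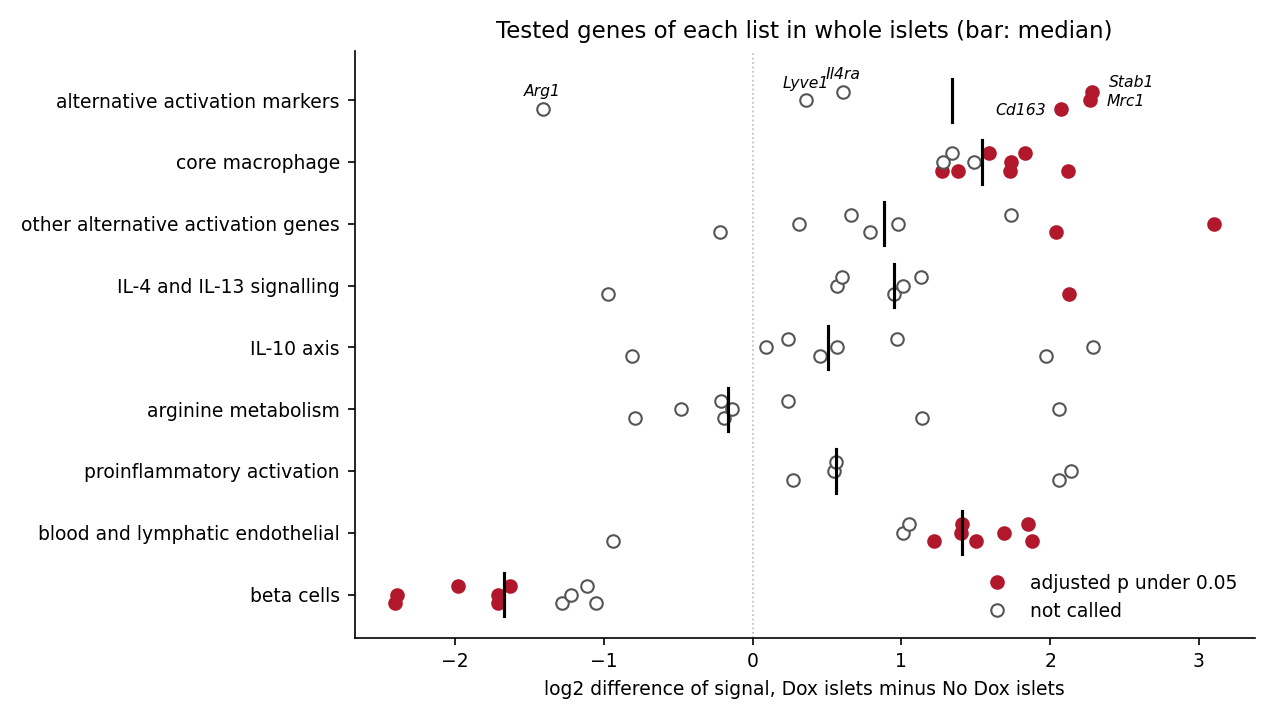
Log2 difference of signal, Dox islets minus No Dox islets, for each tested gene of 9 lists; filled points have an adjusted p under 0.05, open points do not, and bars are list medians. Mrc1, Stab1 and Cd163 lay at 2.07 to 2.28, beside core macrophage genes at 1.27 to 2.12, while Arg1 lay at -1.41 and the beta cell genes at -2.40 to -1.05.

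Neutrophil, eosinophil and lymphocyte genes were low in the islets. None of 11 neutrophil and eosinophil genes and none of 10 lymphocyte genes passed the filter there, and their sums in Dox macrophages were 3832 to 4569 and 787 to 1835. Untested, Trac (84.78 in Dox islets against 17.00 in No Dox islets) and Cd4 (97.85 against 13.05) were higher without overlap. So were Klrb1c (59.85 against 10.18) and Cd8a (22.77 against 10.65), and the other lymphocyte genes overlapped. The share of genes under the filter that separate this way was not computed, and among tested genes it was 17.3%. Dendritic cell genes summed to 18751 to 23203 in Dox macrophages, against 10515 to 11217 in Dox endothelial cells, 6979 to 8207 in Dox islets and 4138 to 7248 in No Dox islets. Of 9 such genes, 5 were tested in islets and 2 were higher in Dox islets, Irf8 (log2 difference 1.58, adjusted p = 0.0497) and Zbtb46 (1.19, adjusted p = 0.0425). Dpp4 had the highest mean of the others (-0.99, adjusted p = 0.198). Against Dox islets, 5 of 8 tested were higher in Dox macrophages and 2 were lower, where 24.7% and 31.3% of all genes tested were. The lower ones were Zbtb46 (1730 against 3461) and Clec9a (583 against 1474). Which cells gave the signal of these genes was not tested. The part of all these cells in the marker values was not tested.

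The genes whose pattern over the 12 libraries was most like that of a marker were found by the root mean square difference of centred log2 signal among 11593 genes. For Mrc1 these were Fcrls (0.35), Gp49a (0.43) and Ly86 (0.48), and for Cd163 they included Axl (0.62) and Runx1 (0.69). For Stab1 they were Cks2 (0.43), Lrrc33 (0.46) and Lfng (0.49), and for Lyve1 Irf2bp2 (0.40), Aph1b (0.45) and Acot2 (0.46). Among the markers themselves Mrc1 was nearest to Clec10a (1.10) and Cd163 (1.2) and far from Stab1 (3.56) and Lyve1 (3.37), whereas Lyve1 was nearest to Arg1 (0.96). These values describe the pattern over 4 groups that share cell type and treatment.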

How the data were processed

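RNA of 12 libraries was measured. Per the labels' protocols, RNA was amplified with a NuGEN Ovation kit before libraries were made from the sheared DNA. Per the submitters' processing notes, TopHat2 2.0 was among the tools and mm9 the build. The sources used here do not say how values were normalized. The deposited signal values, normalized by the authors, were whole multiples of 1 step per library for 99.9 to 100% of low values (tolerance 0.1 step), but 41.7 to 63.8% were multiples of 50 steps. Reads could therefore not be recovered, depth is unknown and no count model was used. Summed signal was 17635776 to 25226447 per library. Because the step was common to all genes, values were not divided by gene length, and levels between genes were compared per kilobase of GENCODE M1 exon.

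Of 22793 entries, the one with the highest mean was kept for each of 76 symbols with several, leaving 22711 genes. Values were tested as log2(signal + 1), which understates changes of low genes, with limma 3.58.1 in R 4.3.3 (variance trend, two-sided, Benjamini-Hochberg over all genes tested, threshold 0.05), each comparison on its 6 libraries. Genes needed the 40th percentile of values above the floor, 183, in at least 3 libraries; a lower filter, 15.6, the percentile over all values, was added after seeing the data. The fit was tested on simulated data. Deviations of same-numbered macrophage and endothelial libraries correlated at 0.27, 0.51 and 0.45, each closest to its own number. These numbers were therefore taken as pairs, but only in the alternative fit with a replicate block. The main values for these sorted groups come from the fit without that block. The labels do not state pairing, and the header library numbers of replicate 3, SL36904 and SL35905, are not adjacent.

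The named genes were the 10 markers, and of each other list up to 4 called members with the largest difference and the uncalled one with the highest mean, though not every gene so chosen is printed, and 1 gene of like pattern is not reported here. Outside this rule, some genes were named after their values were seen. These were Il4, Il13, Chi3l3, Prox1, Flt4 and the other lymphatic genes against islets, Nos2, the lymphocyte genes and the untested perivascular macrophage genes in islets, and Klf4, Il2rg, Il13ra1 and Stat6 in sorted cells. So were the genes named against Dox islets for how they passed the filter, and Zbtb46 and Clec9a in that comparison. Members and lists were chosen with earlier results of these data known. Alternatives were another pseudocount (16), other filters, 2 rescalings, all groups fitted together, a replicate block, GC corrections and leaving out libraries.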

Additional observations from a re-analysis of the deposited data

How the results depend on the processing

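In Dox against No Dox islets the count of markers called higher, 3, was 0 with no filter and 1 after quantile normalization, and 0 to 3 when single libraries were left out. The count called lower, 0, was 1 after quantile normalization, with 4 groups fitted together, with a term for the 2 libraries set apart by GC content and with the GC trend removed, each time Arg1. All genes called, 866, were 97 with no filter (80 shared), 1510 with 4 groups together, 371 without the 2 GC libraries, 2383 with the GC term, 1549 with the GC trend removed and 386 without replicate 1 of both groups (library numbers in the header set these apart; added after seeing the data), and 5 to 736 without single libraries, 5 without Dox replicate 2. The cause was not tested, beyond the larger number of genes tested without a filter (22711 against 10214). Of all calls 73.3% were higher; quantile normalization gave 57.8%, median ratio rescaling 62.2% and removal of the GC trend 57.5%, where the median of all genes moved from 0.11 to between -0.02 and 0.00. Mrc1, Cd163 and Stab1 stayed at 1.91 to 2.17 under both rescalings. With no filter their adjusted p-values were 0.0564, 0.138 and 0.238; after quantile normalization those of Cd163 and Stab1 were 0.0552 and 0.0553, and without replicate 1 of both groups that of Stab1 was 0.136.

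In Dox endothelial cells against Dox islets, markers called higher, 1, were 0 with no filter, 2 with the lower filter (Il10, adjusted p = 0.0217) and 0 to 1 without single libraries, and markers called lower, 3, were 5 with no filter. All genes called, 3206, were 2105 to 6168 without single libraries, 6168 without Dox islet replicate 1. Calls that were higher went to 54.8% after quantile normalization, against 44.4%, with the median of all genes at 0.22 against 0.08. Arg1, not called, was -0.24 without Dox islet replicate 2 and -0.03 without endothelial replicate 3, and up to 0.35 without other single libraries. With a replicate block, all genes called were 627 in Dox against No Dox islets, where same-numbered libraries correlated at -0.66 to 0.19 and the numbers were not taken to pair; among the markers the block changed no call other than Arg1 between the sorted fractions. Signal near the floor limits Retnla, Mgl2, Clec10a and Il10 in islets. The 8 and 7 markers called higher in Dox macrophages remained at 8 to 9 and 7 without single libraries.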
